A study of Sus scrofa with 8 samples.

Results

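MYMK and CDH15 are 2 genes of myoblast fusion, and their onset was followed in single cells of the pig embryo. They were taken by symbol, as 2 of the 21301 genes in the count matrices of all 8 libraries, and both had UMIs in every library. MYOG and MYH3 served as the reference for onset. Each library was a droplet-based single-cell RNA library of embryos pooled from a single sow, with no treatment and no engineered allele in any group. The pigs were Tibetan (ZZ) or a Duroc x Tibetan cross (DZ), and each was sampled once at embryonic day (E) 16, E18 and E21 as somite and at E28 as myotome, which gave 8 groups of 1 library. A level at 1 stage of 1 breed therefore had no replicate, and the p-values below rest on libraries of the other breed or the neighbouring stage. Stage and tissue cannot be told apart at E28. The E16 libraries were counted with another Cell Ranger version than the other 6, and this cannot be told apart from the stage.

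Skeletal muscle fibres form by fusion of mononucleated muscle cells. MYMK (myomaker) is a multipass membrane protein that both fusing cells need for their membranes to merge, and its partner peptide is encoded by MYMX. CDH15 (M-cadherin) is a calcium-dependent adhesion protein that holds myoblasts and satellite cells to each other and to fibres. MYOG (myogenin) is the transcription factor that commits myoblasts to differentiation, and MYH3 encodes embryonic myosin heavy chain, a protein of the first sarcomeres. PAX3 marks the progenitors of the dermomyotome, and PAX7 marks progenitors that go on to give myoblasts and satellite cells.

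In Sscrofa11.1 with the RefSeq annotation, MYMK lies on the minus strand of chromosome 1 from 273101674 to 273111721 and has 5 exons. CDH15 lies on the minus strand of chromosome 6 from 636350 to 652260, with 14 exons in the transcript that starts at 652260 and 13 in one that starts at 652136. No annotated gene overlaps either of them. The 250 bases before each start are shown because both genes rose together over the stages, and because muscle bHLH factors such as MYOG bind E-boxes (CANNTG, which reads as itself on both strands). Capitals mark the E-boxes, and both runs read 5′ to 3′ on the gene's own strand, at chr1:273111722-273111971 for MYMK and chr6:652261-652510 for CDH15.
MYMK: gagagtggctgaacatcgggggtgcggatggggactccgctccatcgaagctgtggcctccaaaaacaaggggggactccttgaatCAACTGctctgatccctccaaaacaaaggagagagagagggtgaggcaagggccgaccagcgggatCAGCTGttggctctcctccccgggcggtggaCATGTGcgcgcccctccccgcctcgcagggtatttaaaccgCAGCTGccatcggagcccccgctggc
CDH15: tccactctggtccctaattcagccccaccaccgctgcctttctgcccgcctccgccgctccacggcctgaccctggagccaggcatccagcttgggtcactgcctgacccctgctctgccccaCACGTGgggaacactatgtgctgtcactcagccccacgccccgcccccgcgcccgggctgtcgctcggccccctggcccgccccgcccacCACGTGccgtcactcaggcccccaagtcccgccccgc
The MYMK window held 4 E-boxes, of which 2 were CAGCTG, and the CDH15 window held 2, both CACGTG. The CDH15 window held no CAGCTG, and neither window held CACCTG. Of 20664 protein-coding genes, 62.3% had at least 1 E-box in a window of this length, 3.23% had at least 4 and 28.7% had at least 2. CAGCTG occurred at least 2 times in 1.20% of the windows. The MEF2 motif was found in neither window, and 2.70% of all windows held it. A match is a run of letters and not a measured binding site.

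After the filters, 74868 cells were kept of 90688 barcodes, with 5774 to 10972 cells and 42233199 to 58319326 UMIs a library and a median of 3404.5 to 6229 UMIs a cell. The 2 members and the 2 reference genes were left out of the clustering. Skeletal myogenic cells, taken from clusters that carried the progenitor and muscle markers, numbered 7912 in all and 238 to 2427 a library, or 4.12% to 22.1% of the cells. A sub-cluster of 486 cells that carried cardiac markers was removed from them. The library of E16 ZZ stood apart in quality, since 39.2% of its barcodes had over 10% mitochondrial UMIs against 1.05% to 9.15% in the other 7. Any pair of libraries shared 23 to 49 barcode sequences.

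MYMK was nearly absent at E16 and appeared at E18, and CDH15 was already present at a low level at E16. Over all cells kept, the MYMK level in counts per 1000000 counts (CPM) was 1.03 at E16 ZZ, 0.585 at E16 DZ, 10.1 at E18 ZZ, 13.02 at E18 DZ, 49.8 at E21 ZZ, 45.5 at E21 DZ, 82.7 at E28 ZZ and 171 at E28 DZ. The CDH15 level in the same order was 3.15, 3.23, 11.7, 15.8, 48.9, 53.4, 87.3 and 124 CPM. All 4 late libraries (E21 and E28) lay above all 4 early libraries (E16 and E18) for both genes. MYMK averaged 87.3 ± 58.3 CPM late and 6.18 ± 6.32 CPM early (SD, n = 4 libraries each), and CDH15 averaged 78.4 ± 34.8 and 8.46 ± 6.31 CPM (SD, n = 4 each). Each difference had an exact two-sided permutation p of 0.0286, the smallest that 4 libraries against 4 can give. In a fit over all genes with breed as a covariate (edgeR quasi-likelihood test with Benjamini-Hochberg adjustment, as in every fit below), MYMK was higher late by 3.65 on the log2 scale (SE 0.97, adjusted p = 0.0228) and CDH15 by 3.07 (SE 0.57, adjusted p = 0.0070). Of the 14687 genes in this fit 34.6% passed the same threshold. The edgeR call of MYMK was lost without E16 ZZ (3.35, adjusted p = 0.0501), E28 ZZ (3.52, adjusted p = 0.0532) or E28 DZ (3.15, adjusted p = 0.0612). In such sums of whole libraries, more muscle cells and more RNA per muscle cell cannot be told apart, and the share of skeletal myogenic cells itself differed between libraries.

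Within the skeletal myogenic cells the rise had 2 steps, from E16 to E18 and from E18 to E21. The make-up of these cells also differed between stages, so that the share of each kind of cell and its level per cell cannot be told apart in these sums. The 2 PAX3+ progenitor-like sub-clusters held 117 and 65 of 238 cells at E16 ZZ and 341 and 178 of 596 at E16 DZ, but 63 and 33 of 896 at E21 ZZ and 37 and 37 of 920 at E21 DZ. Sub-cluster 0, led by SHD, RASSF4 and STUM, went from 51 of 552 cells (ZZ) and 89 of 743 (DZ) at E18 to 183 of 896 and 158 of 920 at E21, and MYMK within it was 984 and 1060 CPM at E18 and 1105 and 938 CPM at E21. The MYMK level over all skeletal myogenic cells was 6.82 CPM at E16 ZZ, 1.92 at E16 DZ, 140 at E18 ZZ, 150.6 at E18 DZ, 431 at E21 ZZ, 342 at E21 DZ, 412 at E28 ZZ and 572 at E28 DZ. The CDH15 level was 27.3, 21.6, 127, 149.01, 401, 382, 418 and 406 CPM in the same order. The stages E16, E18 and E21 did not overlap for either gene, and the E28 values of MYMK overlapped those of E21. MYOG was at 0 in both E16 libraries, whose depth puts 3 counts at 1.86 and 0.822 CPM, then at 7.38 (ZZ) and 6.73 (DZ) CPM at E18, at 76.9 and 50.5 CPM at E21, and reached 101 and 129 CPM at E28. MYH3 was at 0.620 (ZZ) and 1.92 (DZ) CPM at E16, rose to 116 and 141 CPM at E18 and to 997 and 547 CPM at E21, and was at 511 and 834 CPM at E28.

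**Figure D1:**
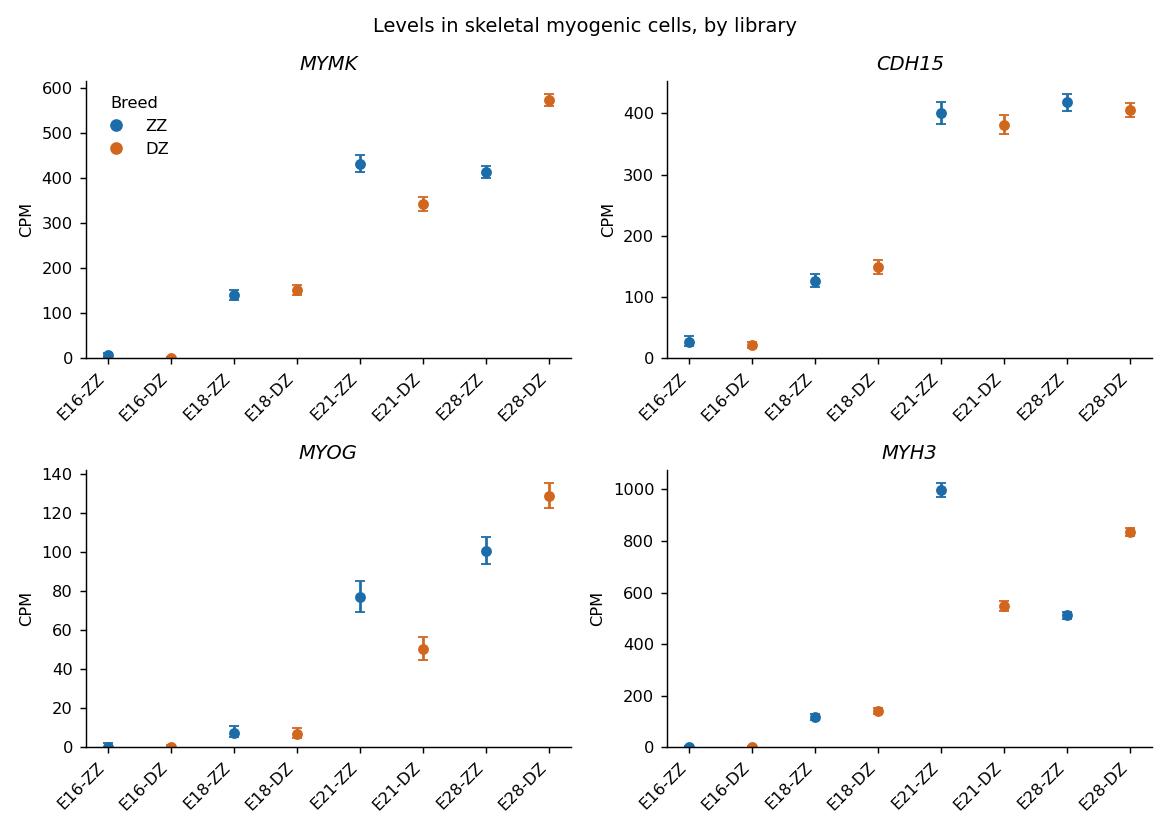
Level of MYMK, CDH15, MYOG and MYH3 in skeletal myogenic cells (vertical axes, CPM) in each of the 8 libraries (horizontal axes, ordered by stage and coloured by breed). Points are the level of 1 library and bars are exact Poisson intervals of 95% for counting error only. MYMK and CDH15 stand at 1.92 to 27.3 CPM at E16 and at 127 to 150.6 CPM at E18, where MYOG stands at 6.73 and 7.38 CPM.

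MYMK was higher at E18 than at E16 by 5.23 on the log2 scale (SE 0.36, adjusted p = 2.7e-05) and CDH15 by 2.40 (SE 0.18, adjusted p = 4.0e-05), in a fit over all genes with 2 libraries a stage in which 5.05% of genes were called. From E18 to E21 MYMK rose by 1.49 (SE 0.23, adjusted p = 0.0013) and CDH15 by 1.59 (SE 0.15, adjusted p = 6.0e-05), where 15.7% of genes were called. From E21 to E28 neither passed the test (4.8% of genes called). MYMK differed by 0.31 (SE 0.22, adjusted p = 0.504) and CDH15 by 0.03 (SE 0.14, adjusted p = 0.938), while MYOG was higher at E28 by 0.83 (adjusted p = 0.0401) and MYH3 differed by -0.25 (adjusted p = 0.682). The number of genes called at E18 against E16 fell from 572 to 74 without the DZ library of E16 and to 86 with a mitochondrial limit of 5%, and the 2 members kept their calls in both. Markers of other cell types in the skeletal myogenic cells also differed between stages. The summed level of the fibroblast markers was 268 to 610 CPM in the early libraries and 1334 to 3055 in the late ones, that of the epithelial markers was 749 to 955 and 1.5 to 23.2, and that of the neuron markers 13.2 to 21.8 and 122 to 548. Their part in the rise of the 2 genes was not tested.

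The muscle regulators moved on different schedules. MYF5, the earliest myogenic bHLH factor, was at 9.92 and 5.21 CPM at E16 and at 142.9 and 115 CPM at E18, higher by 4.11 on the log2 scale (adjusted p = 0.0001). MEF2C, a cofactor of the bHLH factors, was at 6.20 and 5.21 CPM at E16 and at 80.9 and 105 at E18. MYOD1, which specifies myoblasts, was at 0 and 0.274 CPM at E16 and at 1.27 and 0.673 at E18, and then at 138 and 91.9 CPM at E21. MYMK and CDH15 thus stood at 127 to 150.6 CPM over the skeletal myogenic cells of E18, where MYOD1 over the same cells was at most 1.27 CPM, and in those with a MYMK UMI MYOD1 was at 6.57 and 2.71 CPM. MYOD1 rose from E18 to E21 by 6.93 on the log2 scale (adjusted p = 1.0e-06) and MYF5 by 1.33 (adjusted p = 0.0042). Of 48 other genes of fusion tested, 6 were higher at E18 than at E16 and none was lower, with a median log2 difference of 0.21 against 0.03 over all genes, of which 385 were higher and 187 lower of 11319 tested. The 6 included CD82 (a tetraspanin, 2.30), NCAM1 (an adhesion molecule, 1.14), CTNNB1 (beta-catenin, which binds the tail of cadherins, 0.69) and CDON (a receptor that associates with cadherins, 1.47). From E18 to E21, 11 of the 48 rose and 5 fell, beside 1031 and 743 of all 11319 genes, and CDH2 (N-cadherin) was among those that fell, by 1.04 on the log2 scale (adjusted p = 0.0116). The other 2 cadherins of the list, CDH4 and CDH11, were called higher, and the median of the 3 was 1.81.

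From E18 on both genes were found mainly in skeletal myogenic cells, where 93.9% to 98.1% of all MYMK UMIs of a library and 73.4% to 94.9% of all CDH15 UMIs lay. At E16 the share was 25.0% and 20.6% of 44 and 34 MYMK UMIs, and 32.8% and 42.0% of the CDH15 UMIs, so most UMIs of both genes then lay outside these cells. A MYMK UMI was found in 2.10% of skeletal myogenic cells at E16 ZZ, 1.17% at E16 DZ, 13.2% at E18 ZZ, 16.4% at E18 DZ, 36.4% at E21 ZZ, 33.9% at E21 DZ, 39.0% at E28 ZZ and 51.8% at E28 DZ. In all other cells, most of which should lack the gene, the share was 0.241% to 2.48% over the 8 libraries. At E16 it was 0.596% (ZZ) and 0.277% (DZ) there, below the E16 shares of the skeletal myogenic cells with all UMIs. Those rest on 5 cells (ZZ) and on 7 cells with 1 UMI each (DZ). At equal depth the order held for ZZ and not for DZ, as the thinned shares given after the plot of shares show. A CDH15 UMI was found in 14.7%, 10.6%, 41.1%, 44.4%, 75.1%, 81.1%, 82.3% and 79.6% of skeletal myogenic cells in the same order, and in 1.20% to 2.76% of the others. The E16 shares of CDH15 were above every share of the other cells. The median depth was 4526 to 6635.5 UMIs in the skeletal myogenic cells of a library and 3170 to 6205 in the others.

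**Figure D2:**
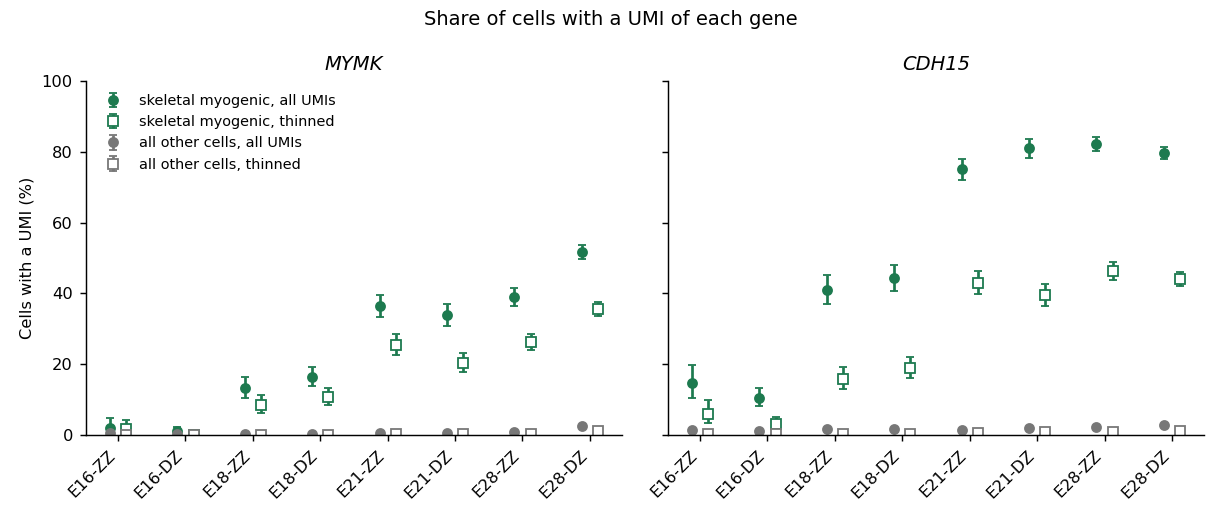
Share of cells with at least 1 UMI of each gene (vertical axis, percent) in each library (horizontal axis), for skeletal myogenic cells and all other cells. Filled circles use all UMIs, open squares use cells thinned to 1500 UMIs, and bars are exact binomial intervals of 95% for counting error only. The skeletal share of MYMK goes from 1.17% to 51.8% and that of CDH15 from 10.6% to 82.3%, and all other cells stay at or below 2.76%.

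With each cell thinned to 1500 UMIs, which left out 89 shallower cells, the MYMK shares in skeletal myogenic cells were 1.72%, 0%, 8.59%, 10.7%, 25.5%, 20.4%, 26.3% and 35.5%. In all other cells at E16 the thinned MYMK share was 0.148% (ZZ) and 0.062% (DZ), so at E16 DZ, where 0 of 588 skeletal myogenic cells had a UMI (upper limit of the exact 95% interval 0.6254%), MYMK was not detectable above the other cells at this depth. The thinned CDH15 shares were 6.01%, 3.23%, 15.9%, 18.9%, 43.0%, 39.5%, 46.4% and 44.1%. E16 stayed lowest, E18 followed, and the 4 late libraries were highest for both genes. A cell with MYMK held a median of 3 to 5 UMIs from E18 on, with a maximum of 49, and a cell with CDH15 held a median of 1 to 3.

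The levels of the 2 genes differed between the sub-clusters of the skeletal myogenic cells. In the PAX3+ progenitor-like sub-clusters MYMK was at 1.51 to 4.41 CPM in the 4 early libraries, when CDH15 was at 21.2 to 73.8 CPM. At E28 these 2 sub-clusters held 28 and 44 cells (ZZ) and 14 and 73 cells (DZ). Over both E28 libraries 6 cells of the first and 40 of the second had a MYMK UMI, so MYMK was not absent from them. In the PAX7+ progenitor/myoblast-like sub-clusters MYMK was at 11.4 and 3.54 CPM at E18 and at 46.6 to 112 CPM in the late libraries, and CDH15 was at 120 and 138 CPM at E18 and at 314 to 363 CPM in the late ones. The progenitor-like cells thus held CDH15 from E18 on in every library, the PAX3+ ones already at E16, and MYMK at 168 CPM or less.

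MYMK was highest in the myocyte-like sub-cluster, whose leading genes were sarcomere genes such as MYLPF and TNNC2, and in sub-cluster 0. The latter held 1480 cells, was led by SHD, RASSF4, STUM and ATP2A1, and had markers of both myocytes and myoblasts, so it was left unnamed. In sub-cluster 0 MYMK was at 984 CPM at E18 ZZ, 1060 at E18 DZ, 1105 at E21 ZZ, 938 at E21 DZ, 1292 at E28 ZZ and 1313 at E28 DZ, and CDH15 was at 496 to 573 CPM. In the myocyte-like cells MYMK was at 874 CPM at E18 DZ, 1301 at E21 ZZ, 1287 at E21 DZ, 1281 at E28 ZZ and 1426 at E28 DZ, and CDH15 was at 396, 663, 620, 584 and 542 CPM. MYMK in sub-cluster 0 thus already overlapped its late levels at E18, when the sub-cluster held 51 and 89 cells. These 2 sub-clusters differed in the reference genes. Sub-cluster 0 held MYOG at 182 to 363 CPM and MYH3 at 79.7 to 140 CPM in the late libraries, and the myocyte-like cells held MYOG at 98.6 to 196 CPM and MYH3 at 4897 to 7913 CPM.

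**Figure D3:**
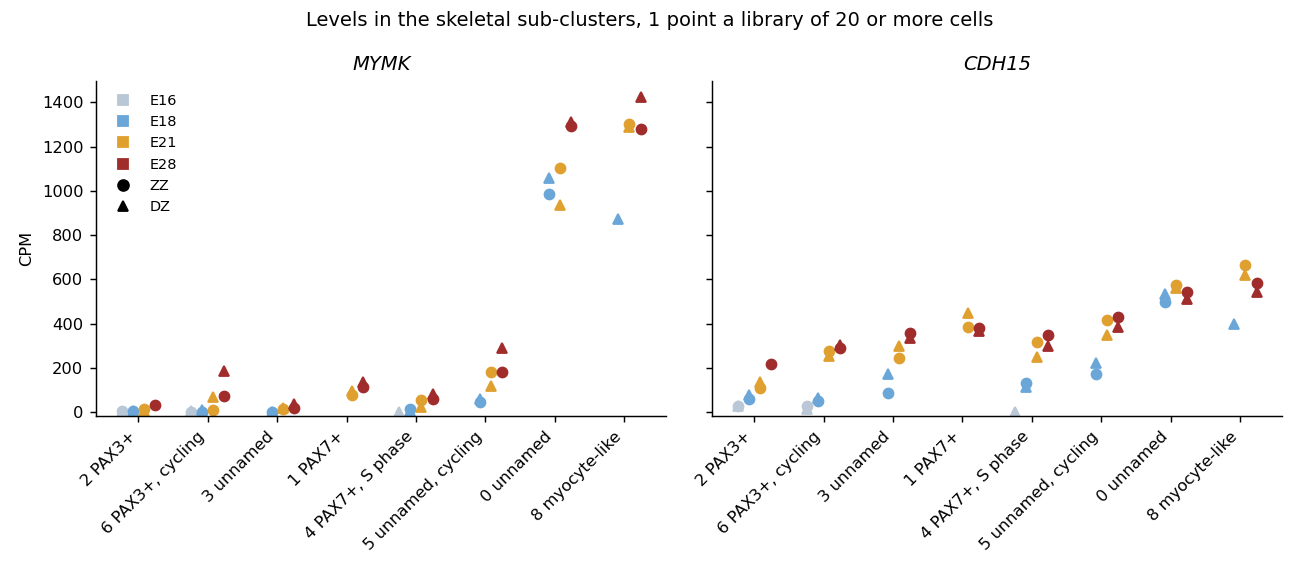
Level of MYMK and of CDH15 (vertical axes, CPM) in the sub-clusters of the skeletal myogenic cells (horizontal axes), each point 1 library with at least 20 cells, coloured by stage and shaped by breed. MYMK lies between 874 and 1426 CPM in sub-cluster 0 and in the myocyte-like cells, and at or below 290 CPM in the others shown, while CDH15 reaches 302 to 449 CPM in several of those and 663 CPM in the myocyte-like cells.

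Another 2 unnamed sub-clusters, one of cycling cells led by UBE2C, KIF23 and CENPF and one led by COL21A1 and STMN2, held both genes at lower levels. In the cycling cells MYMK was at 43.0 and 57.5 CPM at E18 and 118 to 290 CPM in the late libraries, and CDH15 was at 172 and 222 and at 350 to 430 CPM. In the COL21A1 sub-cluster MYMK was at 0 at E18 and at 13.3 to 34.6 CPM in the late libraries, while CDH15 was at 84.0 and 169 and at 244 to 357 CPM. At E18 it held only 20 (ZZ) and 30 (DZ) cells, so a MYMK level as low as the late ones could have been missed. Sub-cluster 0 held the most cells with MYMK, 61.5% of 195 cells at E18, 49.1% of 638 at E21 and 51.3% of 1856 at E28. Within the myocyte-like cells, the step from E21 to E28 passed for neither gene (3.86% of genes called). MYMK differed by -0.07 on the log2 scale (SE 0.24, adjusted p = 0.960) and CDH15 by -0.32 (SE 0.24, adjusted p = 0.654). In simulated counts this fit recovered 51% of 2-fold and 90.9% of 4-fold changes.

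At E16 none of 834 skeletal myogenic cells had a MYOG UMI, while 98 had CDH15 and 12 had MYMK. Of the 12, 3 also had CDH15 and none had MYH3, and the 8 cells with MYH3 had neither member. At E18, 557 of 1295 cells had CDH15, 195 had MYMK, 112 had MYH3 and 51 had MYOG. Of the 195 with MYMK, 61 had CDH15 as the only other gene of the 4, 14 had none of the other 3, 68 had CDH15 and MYH3, and 18 had all 4. MYMK was thus found in more cells than MYOG or MYH3 at the first stage at which all 4 were present, and most of its cells had CDH15. At E18, 21 of the 25 cells with MYOG in ZZ and 22 of the 26 in DZ held 1 MYOG UMI. Thinning evens the depth of cells but not the abundance of genes, so it cannot show which gene came on first. In cells thinned to 1500 UMIs at E18, 225 cells had CDH15, 125 had MYMK, 80 had MYH3 and 10 had MYOG.

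The reference genes found beside MYMK differed between the stages. A MYOG UMI was found in 21.0% of MYMK cells at E18 (95% exact binomial interval 15.5% to 27.4%), in 50% at E21 (46.0% to 54.0%) and in 52.0% at E28 (49.7% to 54.3%). By library the share was 30.1% at E18 ZZ, 15.6% at E18 DZ, 55.2% at E21 ZZ, 44.6% at E21 DZ, 54.2% at E28 ZZ and 51.0% at E28 DZ. A MYH3 UMI was found in 50.3%, 33.7% and 23.8% of MYMK cells at E18, E21 and E28. By library the MYH3 share was 47.9%, 51.6%, 32.5%, 34.9%, 25.2% and 23.2%. The MYOG share was lower in both E18 libraries than in all 4 later ones, and the MYH3 share was higher. With 2 libraries against 4 an exact permutation test cannot go below p = 0.133, so no test was made. In skeletal myogenic cells without a MYMK UMI, MYOG was found in 0.909%, 4.16% and 5.16% at E18, E21 and E28, and MYH3 in 1.27%, 5.35% and 7.44%. MYOG was thus rarer at E18 in these cells as well. In thinned cells with MYMK the MYOG share was 4.80%, 26.5% and 31.4% and the MYH3 share 38.4%, 31.6% and 18.4%, in the same order of stages.

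**Figure D4:**
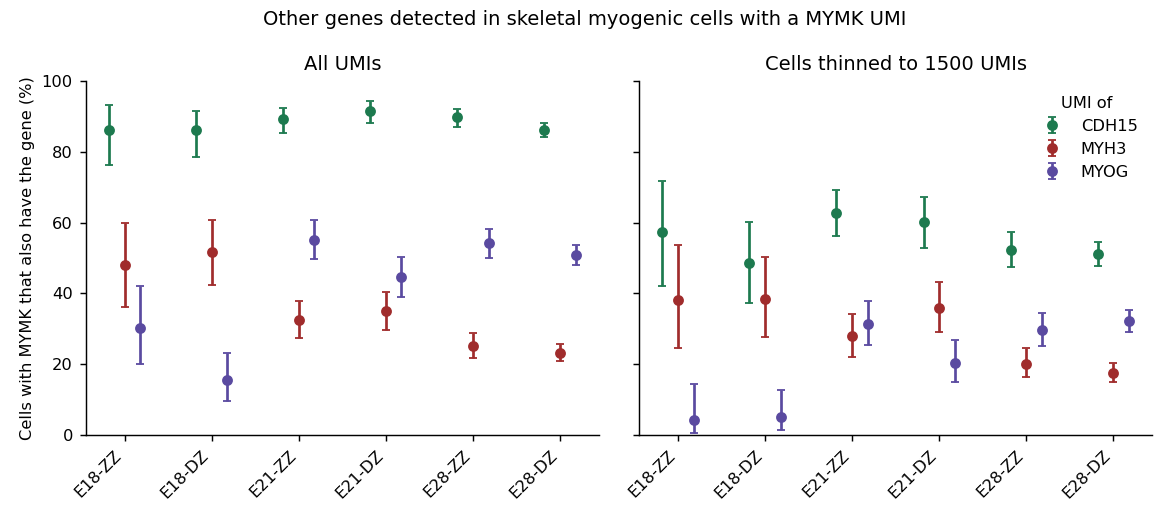
Share of skeletal myogenic cells with a MYMK UMI that also had a UMI of CDH15, MYOG or MYH3 (vertical axis, percent) in each of the 6 libraries of E18, E21 and E28 (horizontal axis), with all UMIs and with cells thinned to 1500 UMIs. Bars are exact binomial intervals of 95% for counting error only. With all UMIs the MYOG share is 15.6% to 30.1% at E18 and 44.6% to 55.2% later, and the MYH3 share goes the other way, from 47.9% to 51.6% at E18 to 23.2% to 34.9% later.

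Read from the other side, MYMK was found in 80.4%, 86.7% and 89.9% of cells with MYOG at E18, E21 and E28 and in 87.5%, 77.3% and 73.8% of cells with MYH3. It was found in 12.4%, 22.0% and 30.8% of cells without MYOG and in 8.20%, 27.5% and 42.0% of cells without MYH3. The share in cells with MYH3 differed with the number of MYH3 UMIs in a cell. Cells with 10 or more MYH3 UMIs held MYMK in 96% at E18 DZ, 98.6% and 93.7% at E21 (ZZ, DZ) and 94.6% and 96.4% at E28, and cells with 1 MYH3 UMI in 45.9% and 38.3% at E21 and 56.2% and 60.3% at E28. The former were also deeper. Their median was 7560 and 8319 UMIs at E21 and 7439 and 9335 at E28. That of cells with 1 MYH3 UMI was 5913 and 7489 at E21 and 5042.5 and 4604 at E28. The part of depth in these shares was not tested. CDH15 was found in 86.3%, 92.7% and 90.1% of cells with MYOG and in 41.2%, 74.4% and 77.2% of cells without it. MYMK was found in 3.06%, 30.2%, 40.7% and 50.7% of cells with CDH15 at E16, E18, E21 and E28. In cells without CDH15 the MYMK share was 1.22%, 3.66%, 15.4% and 30.6%. Many cells counted as MYH3-positive at E28 held a single UMI, and the MYH3 level of all other cells there was 9.19 and 27.4 CPM, and the part of free RNA in these cells was not tested.

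Cells were then summed in each library by whether they held MYOG, MYH3, both or neither, and sums of at least 20 cells were compared within libraries. In cells with neither gene MYMK was at 91.4, 82.8, 120 and 200 CPM at the ZZ and DZ libraries of E21 and then of E28. In cells with MYOG only it was at 820, 583, 783 and 1033 CPM, in cells with MYH3 only at 817, 617, 476 and 366 CPM, and in cells with both at 1445, 1535, 1564 and 1558 CPM. The 3 detected states lay above the state with neither in every library, and the state with both above all others. At E18 MYMK was at 31.6 and 37.0 CPM in cells with neither and at 1023 and 1006 CPM in cells with MYH3 only. In thinned cells of E18 it was at 72.5 and 99.1 CPM with neither and at 938 and 810 CPM with MYH3 only. CDH15 moved less. It was at 310, 318, 370 and 352 CPM with neither, 522, 483, 471 and 481 with MYOG only, 489, 442, 435 and 373 with MYH3 only and 657, 639, 619 and 539 with both, at the ZZ and DZ libraries of E21 and then of E28.

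**Figure D5:**
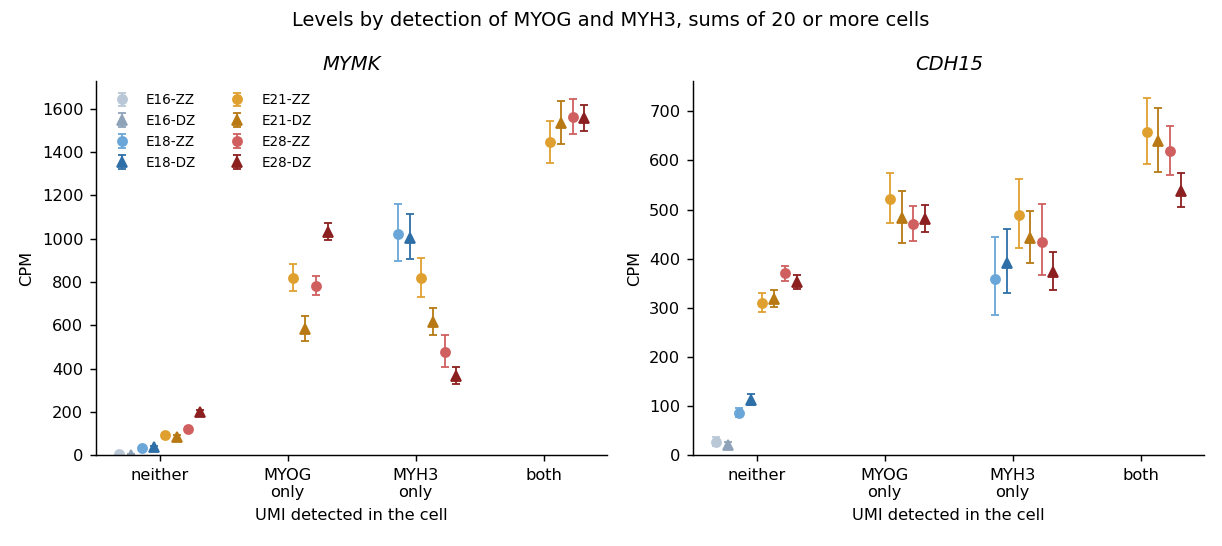
Level of MYMK and CDH15 (vertical axes, CPM) in skeletal myogenic cells summed by whether a UMI of MYOG or MYH3 was found (horizontal axes), with a point for each library and sums of 20 or more cells. Bars are exact Poisson intervals of 95% for counting error only. At E21 and E28 MYMK goes from 82.8 to 200 CPM with neither to 1445 to 1564 CPM with both, and CDH15 from 310 to 370 CPM to 539 to 657 CPM.

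MYMK was higher in cells with MYOG only than with neither by 3.21 on the log2 scale (SE 0.36, adjusted p = 1.4e-06) and CDH15 by 0.89 (SE 0.19, adjusted p = 0.0020). In this fit 11.7% of 9107 genes were called higher and 10.8% lower. The log2 ratios of CPM within the 4 libraries were 2.37 to 3.15 for MYMK and 0.35 to 0.75 for CDH15, so that both fitted values, which use TMM scaling, lie above the ratio in every library. MYMK was higher in cells with MYH3 only than with neither by 3.18 (SE 0.36, adjusted p = 7.4e-07) and CDH15 by 0.94 (SE 0.18, adjusted p = 0.00078), where 18.1% of genes were called. These are averages over libraries whose log2 ratios of CPM were unequal. For MYMK the E18 ratios were 4.97 (ZZ) and 4.73 (DZ), those of E21 were 3.15 and 2.88, and those of E28 were 1.98 and 0.87. For CDH15 the ratio was 2.04 (ZZ) and 1.78 (DZ) at E18, then 0.66 and 0.47 at E21, then 0.23 and 0.08 at E28. At E18 CDH15 was at 358 and 391 CPM in cells with MYH3 only and at 86.5 and 112.9 CPM in cells with neither. The difference between stages was not tested, and for MYMK it was smaller in the thinned levels given before the plot of states. From MYOG only to both, MYMK rose by a further 1.15 (SE 0.38, adjusted p = 0.0314) and CDH15 differed by 0.52 (SE 0.21, adjusted p = 0.0793), where 25% of genes were called. The log2 ratios of CPM within the libraries were 0.33, 0.40, 0.39 and 0.16 for CDH15, all below its fitted value, and with cells thinned to 1500 UMIs the CDH15 difference was 0.05 (adjusted p = 0.962 by edgeR). CDH15 passed the same test without E18 ZZ (adjusted p = 0.0262 by edgeR) or E18 DZ (adjusted p = 0.0368) and under 5 other alternatives given in the closing section. This last call of MYMK was lost when cells were thinned to 1500 UMIs (0.66, adjusted p = 0.261), with DESeq2 (1.16, adjusted p = 0.0566), with a gate on markers in place of the clusters (1.16, adjusted p = 0.121) and without E21 ZZ, E21 DZ or E28 ZZ (adjusted p = 0.110, 0.178 and 0.113 by edgeR). The CDH15 call for MYOG only was lost with a neighbour graph that was not balanced over libraries (0.59, adjusted p = 0.494 by edgeR), where the MYOG-only sums held fewer cells. The level of MYMK also followed the number of MYOG UMIs in a cell. At E28 DZ it was 219 CPM with no MYOG UMI, 863 with 1, 1300 with 2 to 3 and 1847 with 4 or more, and at E28 ZZ it was 140, 667, 1161 and 1834 CPM. CDH15 at E28 DZ was 355, 446, 531 and 566 CPM over the same classes.

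The differences between states were themselves compared between stages and breeds. The rise of MYMK with MYOG only differed between E28 and E21 by -0.45 on the log2 scale (adjusted p = 0.789) and that of CDH15 by -0.24 (adjusted p = 0.880), where 0.228% of genes were called. The step from MYOG only to both differed by -0.40 (adjusted p = 0.707) and -0.19 (adjusted p = 0.839), where 0.0684% were called. Between the breeds edgeR called 0% of genes in both fits, with 106 and 239 genes at an unadjusted p under 0.05, and DESeq2 called 0 as well. There the rise with MYOG only differed by -0.29 (SE 0.78) for MYMK and 0.03 (SE 0.44) for CDH15 (DZ minus ZZ), and the step to both by 0.09 (SE 0.83) and -0.08 (SE 0.47). With errors of this size the fits cannot show that the breeds were alike. In the skeletal myogenic cells as a whole, MYMK differed between DZ and ZZ by 0.02 on the log2 scale (SE 0.18) and CDH15 by -0.01 (SE 0.11), both at an adjusted p of 1 in the edgeR fit, where 0.0177% of genes were called.

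Among other genes, cells with MYOG only differed from cells with neither in genes of muscle structure and cell division. The 8 with the largest rise were STUM (4.28 on the log2 scale), KLHL40 (3.75), ACTN2 (3.68), ATP2A1 (3.68), PRR32 (3.64), CDKN1A (3.60), CFB (3.42) and HJV (3.33). Some of them were low in both groups. KLHL40 was at 3.34 to 14.9 CPM with MYOG only and at 0.141 to 1.72 CPM with neither. PRR32 was at 4.67 to 16.6 and at 0.320 to 1.97 CPM, and CFB at 6.21 to 33.1 and at 0.959 to 2.21 CPM. KLHL40 stabilises thin filament proteins, ACTN2 anchors actin at the Z-disc, ATP2A1 is the calcium pump of fast fibres, and CDKN1A encodes p21, an inhibitor of the cell cycle. Of 24 sarcomere and muscle structure genes tested 14 were higher, with a median of 1.33 against -0.02 over all genes, and of 13 cell division genes 8 were lower. Of all 9107 genes 11.7% were called higher and 10.8% lower. With the unbalanced graph only 17 genes were called in all (14 higher and 3 lower by edgeR), so these counts do not hold there. Of 40 fusion genes 9 were higher and 8 lower, beside the same 11.7% and 10.8% of all genes. JAM3 (a junctional adhesion molecule, 1.49), CD82 (1.72), ADAM12 (a membrane metalloprotease), CTNNB1 (0.81), ITGA4 (an integrin subunit, 0.75) and BIN1 (which bends membranes, 0.76) were higher, and CDH2 (-1.71), JUP (plakoglobin, -1.31), ITGA9 (another integrin subunit, -1.22), BOC (-0.92) and CDON (-0.80) were lower.

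Cells with both MYOG and MYH3 differed from cells with MYOG only in sarcomere and muscle structure genes. LDB3, a Z-disc protein, had 262 UMIs against 0, at least 121-fold higher when 3 counts over the group are taken as the floor, and COL22A1, a collagen of the muscle and tendon junction, had 200 against 0, at least 92.4-fold higher. Both met the mean of at least 20 CPM asked of listed genes only through sums other than those with MYOG only. MYBPC1 (8.54), GJA5 (8.13), TRDN (7.87), TMEM182 (7.78), CASQ2 (7.69) and MYOT (7.45) followed, each at 2.90 CPM or less in the MYOG-only sums. All 24 sarcomere and muscle structure genes tested were higher, with a median of 4.78 against -0.02 over all genes, and all 13 cell division genes were lower. Of 40 fusion genes 13 were higher and 1, CD9, was lower, beside 1284 higher and 992 lower of all 9107 genes. With cells thinned to 1500 UMIs 135 genes were called higher and 27 lower in all by edgeR, so these list counts, which were not made there, are those of all UMIs only, and LDB3 lost its call (adjusted p = 0.463 by edgeR). The largest differences among the fusion genes were in CAV3 (caveolin-3, 368 UMIs against 5), DYSF (dysferlin, 177 against 5) and ITGA7 (the laminin-binding integrin subunit of muscle, 128 against 6), summed over the 4 libraries, and MYOF (myoferlin, 1.64) and BIN1 (1.65) moved less.

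Cells with a MYMK UMI were also set against cells with CDH15 alone, within each of the 6 libraries of E18 to E28. MYMK and CDH15 chose these cells and were not tested. The median depth at E18 was 6491 UMIs in MYMK cells against 6364 in CDH15-only cells, at E21 it was 6278.5 against 5347.5, and at E28 4997 against 4690, and within libraries the MYMK cells were the deeper in all but E18 DZ (5601.5 against 5655 UMIs). MYOG was at 31.2 to 222 CPM in MYMK cells and at 0.80 to 12.9 CPM in CDH15-only cells, higher by 4.26 on the log2 scale (adjusted p = 4.5e-11). MYH3 was at 735 to 2317 and at 0 to 36.2 CPM, higher by 6.51 (adjusted p = 8.0e-10). At E18, 52.7% of 389 CDH15-only cells lay in the largest PAX3+ progenitor-like sub-cluster. At E21 the largest share, 40.5% of 842, lay in the unnamed COL21A1 sub-cluster, and at E28 35.3% of 1579 lay in a PAX7+ progenitor/myoblast-like one.

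In this comparison 18.3% of 10479 genes were called higher and 18.7% lower. The largest rises were in KLHL31 (7.04), HJV (7.0), MYOZ2 (6.90), MYBPH (6.89), MYOT (6.78), TNNT2 (6.72), ACTA1 (6.61), CSRP3 (6.52), MYH3 (6.51), HSPB3 (6.4), MYL4 (6.35) and SRL (6.31), most of which encode parts of the sarcomere or of the calcium store. KLHL31, HJV, MYOT, CSRP3, HSPB3 and SRL were at 2.42 CPM or less in every CDH15-only sum. The size and order of their rises thus rest on few counts there. They met the mean of at least 20 CPM only through the MYMK sums. All 24 sarcomere and muscle structure genes tested were higher, with a median of 4.86 against -0.03 over all genes. MYOD1 was at 6.57 CPM in MYMK cells against 0.802 in CDH15-only cells at E18 ZZ, 2.71 against 0.584 at E18 DZ, 275 against 38.7 at E21 ZZ, 201 against 23.7 at E21 DZ, 558 against 121 at E28 ZZ and 454 against 120 at E28 DZ. The MYMK cells of E18 thus held less MYOD1 than the CDH15-only cells of E21 and E28. MYOD1 (2.63), MEF2A (1.68), MEF2C (4.47) and MEF2D (1.81) were higher, as were the cell cycle inhibitors CDKN1A (5.57) and CDKN1C (2.46). MYF5 was not called over the 6 libraries (-0.21, adjusted p = 0.650), and its direction differed between stages. It was at 360 CPM in MYMK cells against 168 in CDH15-only cells at E18 ZZ and 271 against 96.4 at E18 DZ. It was at 216 against 454 at E21 ZZ, 228 against 331 at E21 DZ, 220 against 513 at E28 ZZ and 388 against 980 at E28 DZ. MYF5 was thus higher beside MYMK in both E18 libraries and lower in all 4 later ones, a difference between stages that was not tested.

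The largest falls were in RSPO3 (-2.09), PAX3 (-1.98), NTN5 (-1.91), HEY1 (-1.86), NRP2 (-1.84), PTX3 (-1.77), PAX7 (-1.63), NECTIN1 (-1.63), CCDC80 (-1.63), DMRT2 (-1.55), NFATC4 (-1.54) and AKAP12 (-1.54). PAX3, PAX7 and DMRT2 are transcription factors of muscle progenitors, and HEY1 is a target of Notch signalling, which keeps progenitors undifferentiated. Of 12 progenitor regulators listed 11 were lower, SIX4 being the exception (-0.13, adjusted p = 0.478). All 14 cell division genes tested were lower, with a median of -1.06. Of all 10479 genes 18.7% were called lower.

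Of 44 fusion genes tested in this comparison 18 were higher and 7 lower, with a median of -0.01 against -0.03 over all genes. Of all 10479 genes 18.3% were called higher and 18.7% lower, so the lower count was not above the share over all genes. Among the other cadherins CDH2 was at 42.7 CPM in MYMK cells against 71.4 in CDH15-only cells at E18 ZZ, 43.4 against 83.5 at E18 DZ, 14.3 against 35.2 at E21 ZZ, 12.4 against 52.3 at E21 DZ, 6.18 against 18.8 at E28 ZZ and 6.05 against 15.5 at E28 DZ. CDH2 was thus lower beside MYMK in 6 of 6 libraries, with a difference of -1.16 on the log2 scale (SE 0.15, adjusted p = 5.9e-05), and CDH4 was called lower by edgeR (-1.40, adjusted p = 0.0153) at 0 to 3.76 against 0 to 10.9 CPM, lower in 4 of 6 libraries and higher in 1. Of the immunoglobulin-type adhesion genes, JAM3 was at 181 to 309 and at 59.7 to 119 CPM, higher by 1.79, and NCAM1 was higher by 0.62, while the cadherin-associated receptors BOC (-1.14) and CDON (-0.80) were lower. Among the catenins, which link cadherins to actin, CTNNB1 (0.77) and CTNND1 (0.51) were higher and JUP (-1.07) was lower. ITGA7 (3.65), CD82 (1.75) and ADAM12 (1.84) were higher. Of 13 genes of actin remodelling, which drives the invasive step of fusion, GRB2 (0.96), TANC1 (0.55) and CDC42 (0.31) were called higher and DOCK1 (-0.47) lower. These calls stand beside the same 18.3% and 18.7% of all genes. By CPM GRB2 was higher in 6 of 6 libraries and DOCK1 lower in 6 of 6, but TANC1 was higher in 4 of 6 and CDC42 in 3 of 6. CAV3 was at 21.2 to 41.9 and at 0 to 0.97 CPM, and DYSF (3.47), MYOF (1.12) and BIN1 (1.57) were also higher. MYMX had no row under that symbol and was not analysed here.

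The genes whose level followed each member most closely were ranked by Pearson correlation of log2(CPM + 1) over 103 sums of a cell class in a library. The sums share libraries and differ in depth, so the values describe these sums and carry no test. MYMK was closest to CHRNA1 (0.938), a subunit of the muscle acetylcholine receptor, followed by ARPP21 (0.930), ENSSSCG00000006592 (0.926), MYOG (0.925), NEB (nebulin, 0.913), MUSK (the receptor kinase of the neuromuscular junction, 0.900), SGCA (0.898) and JSRP1 (0.892). CDH15 was closest to MYF5 (0.912), followed by TNNT1 (slow troponin T, 0.896), NEB (0.871), MYF6 (0.868), MYMK (0.860), CHRNA1 (0.852), SHISA2 (0.847) and ENSSSCG00000035293 (0.846). MYOG stood at rank 4 for MYMK and at rank 19 for CDH15 (0.787), and MYH3 stood at rank 38 for MYMK (0.782) and rank 99 for CDH15 (0.642). The order of the neighbours differed between the members, with MYOG nearest among the bHLH factors for MYMK and MYF5 for CDH15.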

How the data were processed

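Somite (E16, E18, E21) and myotome (E28) cells of ZZ and DZ were profiled with 10x Chromium. The deposited UMI counts were made by the authors with Cell Ranger 3.1.0 (E16) or 3.0.2 (the other 6 libraries) on Sscrofa11.1 with Ensembl genes, and are not normalized. Cells with at least 200 genes, at most 30000 UMIs and at most 10% mitochondrial UMIs were kept, and the top Scrublet scores (0.8% per 1000 barcodes, 523 to 1201 cells a library) were removed as doublets. Cells were clustered (scanpy 1.11.5, Leiden) on a graph balanced over libraries, without MYMK, CDH15, MYOG and MYH3. Counts were summed by library and tested with edgeR 4.0.16 quasi-likelihood fits (R 4.3.3, TMM, filterByExpr, Benjamini-Hochberg threshold 0.05), blocked by library for states. Sums under 20 cells were left out. Intervals are exact and cover counting error only. In simulated counts the fit of MYOG only against neither recovered 95% of 2-fold and 100% of 4-fold changes, that of E21 against E18 83% and 100%, that of whole libraries 68% and 98%, and that of myocyte-like cells 51% and 90.9%. Where genes with the largest change are listed, they had an adjusted p under 0.05, a mean of at least 20 CPM and the same direction in every library. The mean was taken over all sums of a fit, so a gene that was high in a single state could pass. Members named from a list are among those with the largest changes in their group of the list, except CD9, CDC42, DOCK1, TANC1, CDH4 and SIX4, which were chosen after their values were seen. At E21 against E18 all 3 cadherins of the list are named, and CDH2 had the smallest change of them. The members and the gene lists were chosen with earlier results of these data known. Positions and sequences are RefSeq, Sscrofa11.1. How reads shared among myosin genes were counted is not given in the sources used here. Of the listed genes, MYMX, KIRREL, STAB2, ELMO1, FER1L5, TTN, RYR1, MKI67, CCNA2, AURKA and RRM2 had no row by symbol and were not used.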

Additional observations from a re-analysis of the deposited data

Results flagged for a closer look

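The MYMK level in myocyte-like cells of E28 DZ, at 1426 CPM, stood apart from those of the other 3 late libraries, which lay between 1281 and 1301 CPM. Its distance to the nearest of them was 0.859 of the whole range, above Dixon's 95% critical value for 4 samples. Among 18 groups of this kind that were checked it was the only one, and chance gives about 1 in 20.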

How the results depend on the processing

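The level of whole libraries (late minus early) was 41.5 CPM for MYMK and 42.7 for CDH15 without E28, and 75.7 and 64.6 without E16, both with an exact permutation p of 0.133, the smallest for those sizes. Leaving out 1 library gave 53.2 to 95.01 CPM for MYMK and 54.8 to 79.7 for CDH15 (permutation p 0.0571, again the smallest), and in the fit 3.15 to 4.54 and 2.78 to 3.59 on the log2 scale with 2984 (without E16 DZ) to 4665 genes called.

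Genes called at E18 against E16 numbered 1092 with no filter on low counts, 86 with a mitochondrial limit of 5% and 937 with a gate on markers, and 74 (without E16 DZ) to 872 with 1 library left out, where MYMK was 4.21 to 6.18 and CDH15 2.16 to 2.60. At E21 against E18 they were 881 with the 5% limit and 737 (without E18 DZ) to 2126, with MYMK 1.31 to 1.67 and CDH15 1.45 to 1.74. At E28 against E21 they were 1061 with no filter and 168 (without E21 DZ) to 835. MYMK there was -0.15 with the unbalanced graph and -0.012 to 0.61 with 1 library left out, and CDH15 was -0.10 with the 5% limit, -0.027 with the unbalanced graph and -0.017 to 0.084. Between breeds 121 genes were called with no filter, 7 with DESeq2, 1 with doublets kept, 27 with the 5% limit, 1 with the unbalanced graph and 1 to 4 with 1 library left out. MYMK was -0.21 with DESeq2, -0.0062 with doublets kept and -0.18 to 0.14, and CDH15 0.16 with the 5% limit and -0.086 to 0.059. In myocyte-like cells 20 genes were called with DESeq2 and 488 with at least 1000 UMIs a cell, and MYMK was 0.12 with the 5% limit, 0.15 with at least 1000 UMIs and 0.17 with sub-cluster 0 added, an alternative chosen after seeing the data. There leaving out E18 DZ gave 276 genes, -0.08 and -0.33, and other omissions left no residual degrees of freedom.

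For MYOG only against neither 17 genes were called with the unbalanced graph, where the MYOG-only sums were smaller, 3575 with the gate, 667 with thinned cells and 1196 (without E28 DZ) to 2099 with 1 library left out. There MYMK was 3.07 to 3.38 and CDH15 0.80 to 1.00, and CDH15 was 0.59 with the unbalanced graph. MYF5 was 0.59 with the gate, and BIRC5 and MCM3 0.049 and 0.049 with the unbalanced graph. For both against MYOG only 162 genes were called with thinned cells (135 higher and 27 lower) and 1515 (without E28 ZZ) to 2382 with 1 library left out. MYMK was 1.16 with DESeq2, 1.16 with the gate, 0.66 with thinned cells and 0.98 to 1.28. CDH15 passed the test with no filter (0.45), the 5% limit (0.50), the unbalanced graph (0.91), sums of at least 10 cells (0.55) and at least 2 MYH3 UMIs (0.56), and was 0.47 to 0.59 with 1 library left out, passing without E18 ZZ (0.518) and without E18 DZ (0.519). MEF2D was -0.10 with thinned cells. For MYH3 only against neither 585 genes were called with the 5% limit, 827 with the gate, 3079 with at least 2 MYH3 UMIs and 1174 to 1698 with 1 library left out, with MYMK 2.82 to 3.68 and CDH15 0.74 to 1.15.

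Genes whose rise with MYOG only differed between stages numbered 65 with no filter, 3 with DESeq2, 0 with no library block (293 at an unadjusted p under 0.05 by edgeR), 0 with the unbalanced graph (257 at that p), 98 with the gate, 2 with thinned cells, 11 with at least 2 MYH3 UMIs and 5 to 36 with 1 library left out, and MYMK was 0.017 with the unbalanced graph. For the step to both they were 48 (no filter), 1 (DESeq2), 0 with no library block (381 at that unadjusted p), 22 (5% limit), 14 (unbalanced graph), 1 (gate) and 12 (at least 2 MYH3 UMIs), and 0 to 10. Between breeds they were 1 with no filter, 1 with doublets kept and 0 to 1 for MYOG only, and 6 with no filter for both. CDH15 for MYOG only was -0.051 with no library block, -0.0074 with doublets kept, -0.086 with the unbalanced graph, -0.10 with sums of at least 10 cells, -0.11 with thinned cells and -0.22 to 0.22 with 1 library left out, and MYMK -0.65 to 0.028. For both, CDH15 was 0.0035 with doublets kept, 0.022 with thinned cells and -0.24 to 0.079, and MYMK -0.36 to 0.52. MYMK cells against CDH15-only cells gave 1432 genes with thinned cells and 3111 to 3826 with 1 library left out. The cause of these shifts was not tested beyond what is said here.

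The labels give no replicate numbers. Stages were compared with breed as a covariate, breeds with stage as a block, and states of cells with the library as a block. States of cells within a library were compared with the library as a block. Most MYOG-positive cells at E18 held 1 MYOG UMI, so a cell without one is not shown to lack it.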
